A study of Arabidopsis thaliana with 14 samples.

Results

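In the root mutant slr-1, 131 probe sets of an Arabidopsis array were higher after both 2 h and 6 h of the auxin NAA than before it, without a like rise in the wild type Col-0. They were chosen on the measured values themselves, among 22746 probe sets other than controls. A level here is the mean of log2(signal + 19) over the 2 arrays of a group. A member had both arrays of some group above a signal of 218, and slr-1 levels at 2 h and at 6 h that were each at least 1 above the slr-1 level at 0 h. Its Col-0 levels at 2 h, at 6 h and after mock treatment were each less than 0.5 above Col-0 at 0 h. Of the 14883 probe sets past the signal floor, 731 (4.91%) met the slr-1 condition at 2 h, 732 (4.92%) that at 6 h, 432 (2.9%) both and 131 (0.88%) met all of them. The differences from 0 h that the choice used, and every difference between the genotypes that rests on the slr-1 0 h level, are therefore given as a description, with no test.

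The samples were lateral root inducible segments, the stretch between root meristem and hypocotyl, of seedlings aged 3 days. All 7 groups had been germinated with NPA at 10 µM, an inhibitor of polar auxin transport. Col-0 and slr-1 were each sampled at 0 h, after 2 h and after 6 h on 10 µM NAA (1-naphthaleneacetic acid, a synthetic auxin), and Col-0 also after 6 h of mock treatment. Each group had 2 biological replicates, with about 1500 seedlings given per time point, and each array read 5.8 µg of total RNA. No slr-1 mock group is among the 7, so in slr-1 the effect of NAA and that of the transfer cannot be told apart. The description field of the mock samples names an insect tissue, while their titles, source names and protocols name root segments of Col-0, and they were used as such.

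Auxin acts by having Aux/IAA repressor proteins degraded, which frees ARF transcription factors to switch on their target genes. The slr-1 allele makes the Aux/IAA protein IAA14 (SOLITARY-ROOT) resistant to this degradation, so that ARF7 and ARF19 stay repressed and the pericycle cells that would found lateral roots do not divide. Many other genes of the same tissue, such as those that build cell walls, suberin and lignin barriers, belong to the differentiation of the root rather than to the founding of new ones.

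The arrays had medians of 357.1 to 397.2 signal units. The highest signal on the second slr-1 6 h NAA array was 29349.7, against 58837.1 to 124830.4 on the other arrays. In control ratios, the second slr-1 0 h array stood apart from the other 13. Its 3′ to 5′ signal ratios were 1.162 for the GAPDH control and 10.577 for the actin control, against 0.546 to 0.742 and 3.229 to 5.516 on the others. The 2 slr-1 0 h arrays correlated least with each other (r = 0.9513, against 0.9637 to 0.9765 in the other groups, across probe sets, which are not independent). That value belongs to the pair and does not single out either array. Because both slr-1 conditions of the choice subtract the slr-1 0 h level, the second slr-1 0 h array enters both of them. Some of the counts that describe the members are therefore given without it as well. Of the 31 tissue marker genes considered, 3 had a probe set named for them alone: the root hair gene EXPA7 and the photosynthesis genes LHCB4.2 and PSAN. Markers of endodermis, xylem, phloem, stele, meristem and root cap had none, so the identity of the tissue could be checked only in part. LHCB4.2 read 1564 and 1694 in Col-0 at 0 h and 294 and 466 in slr-1 at 0 h, and PSAN read 1413 and 1180.0 against 685 and 694, so that both were lower in slr-1 before treatment, as were most members. EXPA7 read 285 and 79.6 in Col-0 at 0 h and 77.7 and 40.2 in slr-1, a difference of -1.19, so that it too was low at 0 h, with differences of -2.15 at 2 h and -0.55 at 6 h. From 0 h to 2 h and to 6 h of NAA in slr-1, LHCB4.2 changed by -1.58 and -1.75 and PSAN by -1.05 and -0.83. EXPA7 changed by -0.11 and 0.24, whereas members were chosen to be at least 1 higher. The part of these tissues in the members' values was not tested. IAA14 had no probe set named for it alone. LBD16 and LBD29, lateral root genes downstream of ARF7 and ARF19, read 8484 and 7375, and 13990 and 11781, in Col-0 at 6 h. In slr-1 at 6 h they read 980.0 and 1288, and 2323 and 2193.

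The members had a low level in slr-1 before NAA, which the choice favours, since both slr-1 conditions subtract that level while Col-0 may not be higher. The counts that follow therefore describe what was chosen, and the shares of all probe sets beside them give only the scale. In slr-1 at 0 h they lay a median of 1.49 below Col-0 at 0 h on the log2 scale, where all probe sets past the floor had a median of 0.01. A difference of at least 1 in this direction was found in 105 members, against 4.62% of all probe sets past the floor, and both slr-1 0 h arrays were below both Col-0 0 h arrays in 117, against 25.7%. They were above both in none (0 of 131, against 28.1%). The slr-1 mean was below that of Col-0 in 129 members (49.1% of all), the exceptions being AT4G28160 (0.19 above, at signals near the offset) and the unnamed 257140_at (0.04 above). After 2 h of NAA the genotypes had a median difference of -0.03, and 99 members were within 0.5 of Col-0 at that time (79.5% of all probe sets were). The members' median signals at 2 h were 1332.5 and 903.8 on the 2 slr-1 arrays and 1167.8 and 1065.0 on those of Col-0. Over all probe sets past the floor the 2 slr-1 arrays had medians of 849.9 and 845.1. After 6 h 67 members were within 0.5 of Col-0 (57.3% of all), 27 were at least 1 higher in slr-1 (7.51%) and 9 were more than 0.5 lower (19.8%). In 83 members the mutant was at least 1 below Col-0 at 0 h and within 0.5 of it at 2 h, and in 60 it was within 0.5 at 6 h. Applied without the second slr-1 0 h array, the conditions chose 136 probe sets, 83 of them among the 131, and 105 of the 136 started at least 1 below Col-0 (median -1.45), a low start being built into that choice as well. Of the 136, 92 were within 0.5 of Col-0 at 2 h and 57 at 6 h, and 31 were at least 1 higher in slr-1 at 6 h. In this bulk tissue fewer cells of a type and less RNA per cell cannot be told apart.

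**Figure D1:**
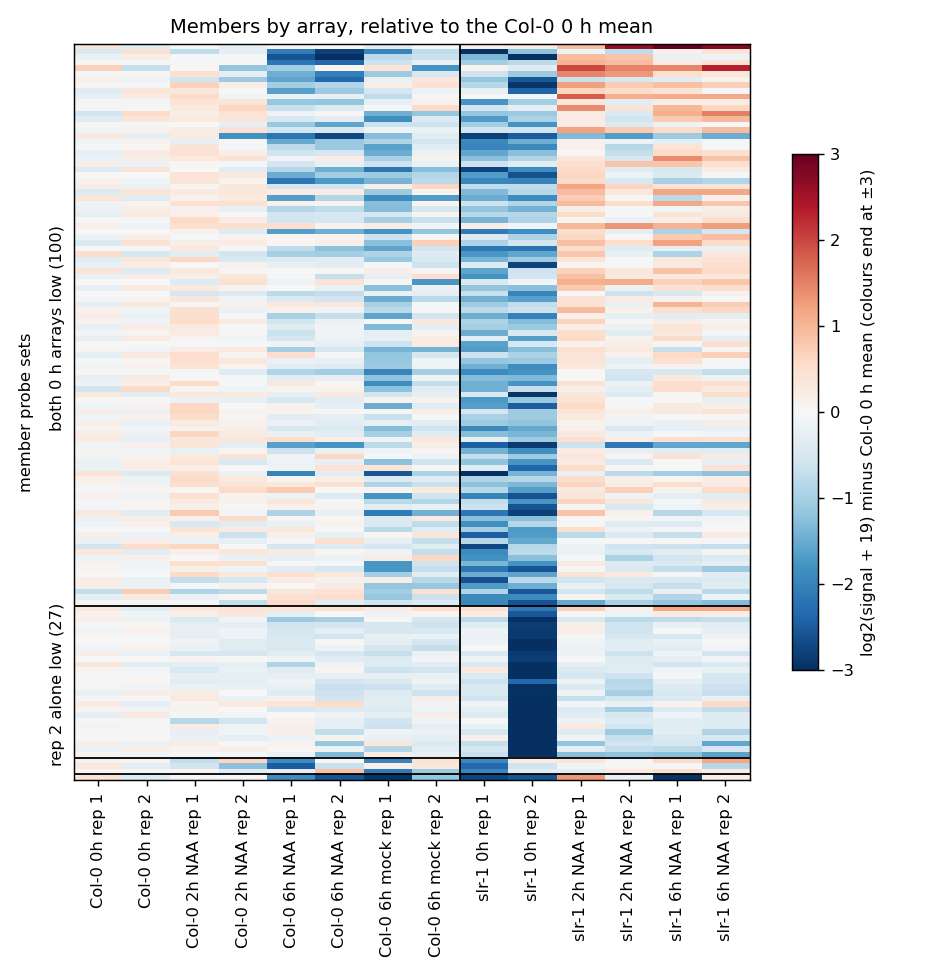
Each row is 1 of the 131 member probe sets and each column 1 of the 14 arrays; colour shows log2(signal + 19) minus the mean of the Col-0 0 h arrays, from blue (lower) to red (higher), with the colour range ending at 3 on either side. Rows are divided by which slr-1 0 h arrays lay below all 4 slr-1 NAA arrays: both (100), replicate 2 alone (27), replicate 1 alone (3) or neither (1). The blue columns are those of slr-1 at 0 h, and few rows are red in slr-1 after NAA.

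**Figure D2:**
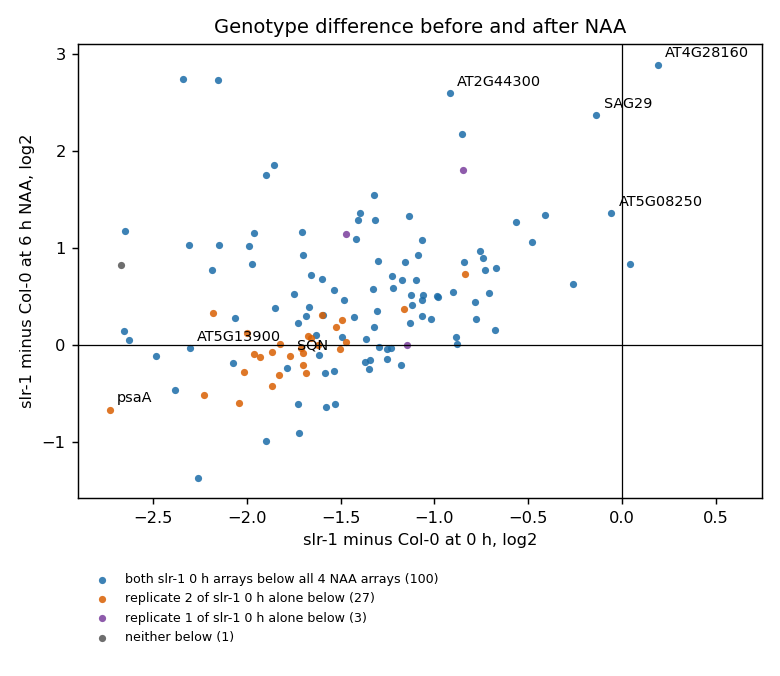
Each point is 1 member, placed by the log2 difference slr-1 minus Col-0 at 0 h (horizontal) and after 6 h of NAA (vertical), and coloured by its pattern on the slr-1 0 h arrays. At 0 h 129 of 131 points lie left of 0, with a median of -1.49; at 6 h the median is 0.32.

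Annotation named 1 gene for 68 of the members, several for 1 and none for 62. All 68 were found in the RefSeq gene table (assembly TAIR10.1), 64 in the nucleus and 4 in the plastid genome. The nuclear genes lay on all 5 chromosomes, with 20, 13, 10, 8 and 13 on chromosomes 1 to 5. The choice of functional groups below was made after the members were seen, so their sizes are a description. A group of 13 was related to cell wall, cuticle, suberin or lignin, 5 were transporters, 5 belonged to stress and detoxification, 2 were cytochrome b561-type proteins and 4 were plastid-encoded photosynthesis genes. Together the groups held 29 of the 68 named members. Without the second slr-1 0 h array the conditions still held for 12 of the 13, 2 of the 5 transporters, all 5 stress genes and both cytochrome genes, and for none of the plastid genes (0 of 4). Without the first they held for 11 of the 13, all 5 transporters, 1 of the 5 stress genes, both cytochrome genes and all 4 plastid genes. Without any 1 of the 14 arrays in turn they held for 4 of the 13, 2 of the 5 transporters and both cytochrome genes. No stress gene (0 of 5) and no plastid gene (0 of 4) met them in every such case.

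In all 13 cell wall and cuticle genes, both slr-1 0 h arrays lay below all 4 slr-1 NAA arrays (15.3% of all probe sets past the floor did so, and 100 of the 131 members). Their median slr-1 difference from 0 h was 1.4998 at 2 h and 1.61 at 6 h, and at 0 h they were a median of 1.07 below Col-0. AT5G13900, AT3G22620 and AT2G44300 encode lipid-transfer-type proteins, small secreted or membrane-anchored proteins that bind lipids. AT5G13900 gave 8276 and 7027 in Col-0 at 0 h, 10543 and 8269 at 2 h, 6857 and 5796 at 6 h, and 2227 and 5074 after mock. For AT5G13900, slr-1 gave 1880.5 and 1240.2 at 0 h, 9792 and 6917 at 2 h, and 6272 and 6033 at 6 h. The mutant began below every Col-0 array and after NAA lay within the range of the 8 Col-0 arrays. AT3G22620 gave 25067 and 22688 in Col-0 at 0 h, 27012 and 22341 at 2 h, 18699.9 and 16605 at 6 h, and 7102 and 14724 after mock. For AT3G22620, slr-1 gave 5212 and 3969.7 at 0 h, 24581 and 17765 at 2 h, and 14346 and 11347 at 6 h. Again the slr-1 0 h arrays were the lowest of the 14. AT2G44300 gave 2268 and 2109.6 in Col-0 at 0 h, 2116 and 2107 at 2 h, 470.3 and 410.4 at 6 h, and 1404 and 1849 after mock. For AT2G44300, slr-1 gave 1063 and 1243 at 0 h, 4549 and 4176 at 2 h, and 2584 and 2943 at 6 h. Here slr-1 after NAA exceeded every Col-0 array, and the Col-0 arrays at 6 h were the lowest of all.

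The GDSL-type esterase/lipase gene AT3G50400 belongs to an enzyme family with roles in cutin and suberin metabolism. AT3G50400 gave 2124 and 2614 in Col-0 at 0 h, 3468 and 2295 at 2 h, 2925 and 2449 at 6 h, and 632 and 1409.8 after mock. For AT3G50400, slr-1 gave 860.5 and 683 at 0 h, 3197 and 2133 at 2 h, and 3294 and 3340.4 at 6 h. The slr-1 0 h arrays overlapped the Col-0 mock arrays, and the slr-1 NAA arrays lay between 2133 and 3340.4, within the range of the 8 Col-0 arrays. A second gene of that family, AT1G74460, gave 4269.8 and 4224 at 0 h, 10661 and 7026 at 2 h and 12746 and 9437 at 6 h in slr-1. CCR2 encodes cinnamoyl-CoA reductase, which makes precursors of lignin. CCR2 gave 1274 and 1547 in Col-0 at 0 h, 1183 and 1451 at 2 h, 477 and 628 at 6 h, and 748 and 932 after mock. For CCR2, slr-1 gave 351 and 494 at 0 h, 1567 and 1258 at 2 h, and 1145 and 1366 at 6 h. In Col-0 its 6 h NAA arrays were the lowest of the genotype, whereas in slr-1 the 0 h arrays were the lowest. The cytochrome P450 gene AT5G08250 gave 362 and 352 at 0 h, 1368 and 795 at 2 h and 831 and 840.0 at 6 h in slr-1, while its 8 Col-0 arrays ranged from 212 to 559, so that it started level with Col-0 and ended above it. AT4G28160, a hydroxyproline-rich glycoprotein gene, was near the lower end of the scale in Col-0, where all 8 arrays lay between 11.1 and 30.4. In slr-1 it gave 23.8 and 26.4 at 0 h, 52.9 and 221 at 2 h and 318 and 241 at 6 h. The slr-1 arrays after NAA were above all 8 Col-0 arrays, but since the Col-0 signals lie near the offset of 19, the size of the difference depends on the offset. The pectin methylesterase gene AT5G20860 had Col-0 arrays that were lowest after mock. AT5G20860 gave 169 and 384 in Col-0 at 0 h, 290.2 and 345 at 2 h, 238 and 264 at 6 h, and 82.6 and 104 after mock. For AT5G20860, slr-1 gave 104 and 108 at 0 h, 307 and 184 at 2 h, and 562 and 769 at 6 h. The dirigent-type gene AT2G21100, of a family that guides lignan and lignin coupling, gave 885 and 1167 at 0 h, 2787 and 1542 at 2 h and 5776 and 3918 at 6 h in slr-1. In both the 6 h arrays of slr-1 lay above its 2 h arrays. The remaining genes of the group were the endoglucanase gene GH9C3, the class III peroxidase gene AT1G68850 and the glycosyl hydrolase gene AT3G07320. Their smaller slr-1 difference from 0 h was 1.42, 1.03 and 1.00.

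**Figure D3:**
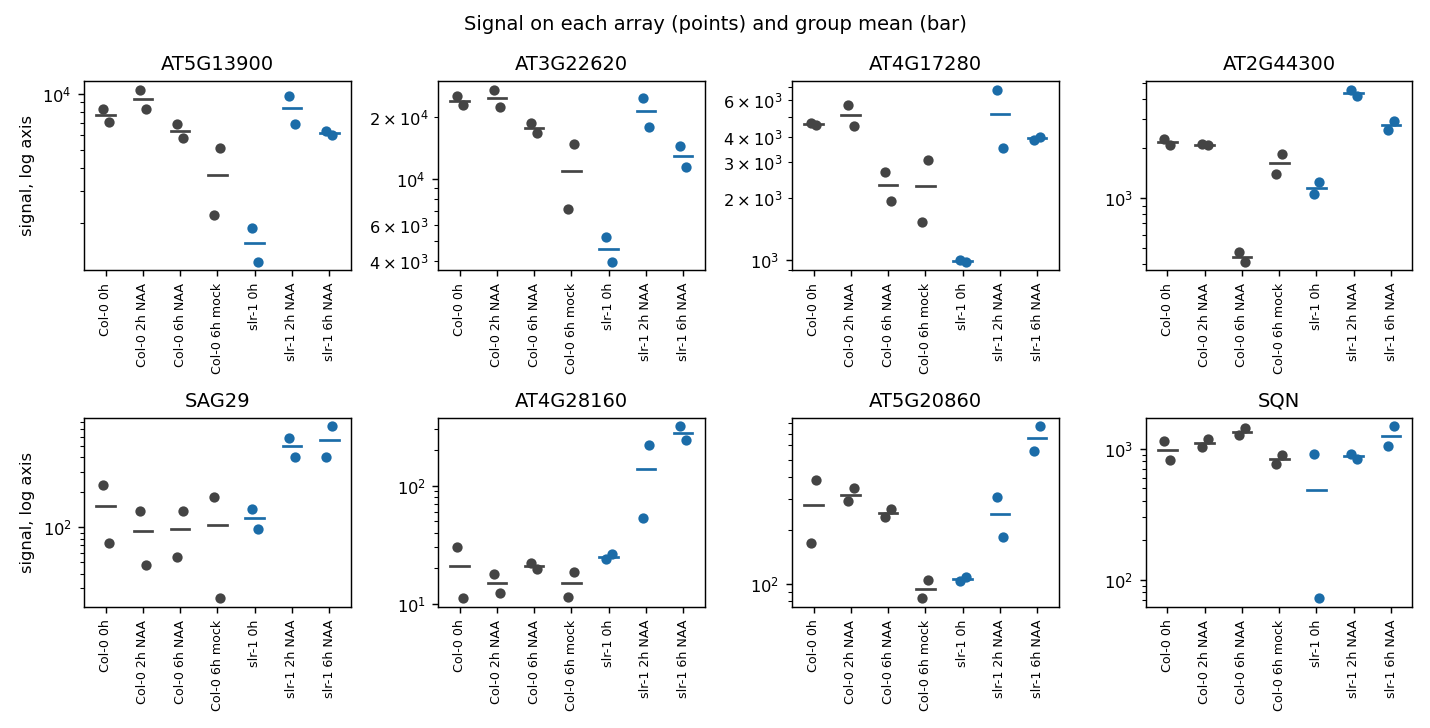
Signals of 8 named members, on a log axis, in each of the 7 groups; points are single arrays and bars are group means, Col-0 in grey and slr-1 in blue. AT5G13900, AT3G22620 and AT4G17280 start low in slr-1 and end near Col-0, SAG29 and AT4G28160 end above all Col-0 arrays, and SQN is low on 1 slr-1 0 h array.

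Among the transporters, SAG29 (SWEET15) is a sugar exporter best known from senescing leaves. SAG29 gave 230.3 and 72.8 in Col-0 at 0 h, 139 and 47.2 at 2 h, 55.7 and 139 at 6 h, and 184 and 24.6 after mock. For SAG29, slr-1 gave 145 and 96.9 at 0 h, 591 and 403 at 2 h, and 399 and 737 at 6 h. All 4 slr-1 NAA arrays were above all 8 Col-0 arrays, while the slr-1 0 h arrays lay inside the Col-0 range. Its Col-0 replicates were far apart, for example 184 and 24.6 after mock. The GABA transporter gene AT1G08230, the NPF-type transporter gene AT3G53960, the MATE-type efflux gene AT1G61890 and the cation efflux gene AT1G79520 had smaller slr-1 differences of 1.32, 1.51, 1.06 and 1.15. Apart from SAG29, each began at least 1 below Col-0 at 0 h. AT1G61890 was also low in Col-0 late, with 729 and 1006 after 6 h of NAA against 3684 and 3035 at 0 h.

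The cytochrome b561-type genes AT4G17280 and AT5G47530 encode membrane proteins of a family linked to electron transfer from ascorbate. AT4G17280 gave 4654 and 4535 in Col-0 at 0 h, 5720.3 and 4499.7 at 2 h, 2695 and 1936 at 6 h, and 1534 and 3067 after mock. For AT4G17280, slr-1 gave 1004 and 984 at 0 h, 6764 and 3508 at 2 h, and 3844 and 3981 at 6 h. Its slr-1 0 h arrays were close to each other and the lowest of the 14. AT5G47530 gave 479 and 565 at 0 h, 3045 and 1706 at 2 h and 1078 and 1487 at 6 h in slr-1, against 2068 and 2132 in Col-0 at 0 h. In Col-0 both genes were lower at 6 h, with and without NAA, than at 0 h, by 1.00 and 1.08 for AT4G17280 and by 1.56 and 1.49 for AT5G47530.

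Among stress and detoxification genes, AT1G20030 encodes a thaumatin-like protein. AT1G20030 gave 378 and 732 in Col-0 at 0 h, 304 and 433 at 2 h, 108 and 58.7 at 6 h, and 116 and 301 after mock. For AT1G20030, slr-1 gave 30.7 and 214 at 0 h, 476 and 303 at 2 h, and 584 and 709.7 at 6 h. The slr-1 0 h replicates were far apart, and in Col-0 the 6 h NAA arrays were the lowest. AT3G02480 encodes a small LEA-type protein. AT3G02480 gave 2229 and 1505 in Col-0 at 0 h, 2176 and 511 at 2 h, 390.5 and 261 at 6 h, and 738 and 1418 after mock. For AT3G02480, slr-1 gave 247 and 308 at 0 h, 717 and 558 at 2 h, and 867 and 637 at 6 h. Although its slr-1 level was higher after NAA, it stayed below Col-0 at 0 h on every slr-1 array. The glucosyltransferase gene UGT76D1 gave 142 and 143 at 0 h, 373 and 381 at 2 h and 347 and 332 at 6 h, and AT4G09500, of the same enzyme family, gave 76.2 and 103 at 0 h, 249.8 and 262 at 2 h and 189 and 212 at 6 h. GSTU28 is a glutathione transferase gene. GSTU28 gave 269 and 168 in Col-0 at 0 h, 138 and 79 at 2 h, 22 and 127 at 6 h, and 240.3 and 276 after mock. For GSTU28, slr-1 gave 26.6 and 134 at 0 h, 195 and 224 at 2 h, and 203 and 112 at 6 h. Its slr-1 arrays at 0 h and 6 h overlapped.

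Of the 14 named members with the largest smaller slr-1 difference, AT4G36610 led with 2.28. AT4G36610 gave 6170.4 and 7447 in Col-0 at 0 h, 10417 and 6722 at 2 h, 7402 and 5743 at 6 h, and 2416 and 5315 after mock. For AT4G36610, slr-1 gave 2130.2 and 1211 at 0 h, 10343 and 6851 at 2 h, and 8189.5 and 7630.2 at 6 h. Its slr-1 0 h arrays were the lowest of the 14. AT1G24600 followed with 2.19. AT1G24600 gave 291 and 506 in Col-0 at 0 h, 384 and 293 at 2 h, 205 and 128 at 6 h, and 71.2 and 148 after mock. For AT1G24600, slr-1 gave 41.2 and 90.9 at 0 h, 584 and 307 at 2 h, and 269.9 and 456 at 6 h. Both slr-1 0 h arrays were below all other arrays except 1 mock array. AT3G17110 is annotated as a pseudogene, so its probe set may read related copies and its identity is uncertain. AT3G17110 gave 681 and 877 in Col-0 at 0 h, 738 and 753 at 2 h, 113 and 66.1 at 6 h, and 442 and 481 after mock. For AT3G17110, slr-1 gave 294 and 81.8 at 0 h, 1494 and 1410.5 at 2 h, and 669.6 and 698 at 6 h. Its slr-1 NAA level at 6 h was 2.73 above that of Col-0, in which the 6 h NAA arrays were the lowest of the genotype. AT1G78070 encodes a WD40-repeat protein. AT1G78070 gave 1393 and 1432 in Col-0 at 0 h, 1889.9 and 1704 at 2 h, 491 and 673 at 6 h, and 662 and 758 after mock. For AT1G78070, slr-1 gave 426 and 216 at 0 h, 2169 and 1274 at 2 h, and 1038 and 1370.3 at 6 h. Both slr-1 0 h arrays were the lowest of the 14. AT5G58160 is a formin gene of the actin cytoskeleton. AT5G58160 gave 222 and 124 in Col-0 at 0 h, 212 and 169.9 at 2 h, 169 and 173 at 6 h, and 191 and 177 after mock. For AT5G58160, slr-1 gave 43.3 and 101 at 0 h, 280.5 and 216 at 2 h, and 315 and 256 at 6 h. Its slr-1 0 h arrays were the lowest of the 14. AT3G44370 gave 325 and 349.7 in Col-0 at 0 h, 354 and 521 at 2 h, 590.3 and 333 at 6 h, and 361 and 415 after mock. For AT3G44370, slr-1 gave 183 and 95.2 at 0 h, 409 and 568 at 2 h, and 362 and 522 at 6 h. In AT3G44370 too they were the lowest, and its other arrays overlapped between the genotypes. The remaining members of the 14 are described above or, for AT2G27900, AT1G32810 and SQN, next.

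In 27 members replicate 2 alone of the slr-1 0 h arrays was below all 4 slr-1 NAA arrays, which was so for 13.7% of all probe sets past the floor. Replicate 1 lay within or above the NAA range there. In all 28 members had a replicate 1 that was not below all 4 NAA arrays (74.2% of all probe sets), and in 1 of them, the unnamed 265216_at, neither replicate was (60.5%). SQN encodes cyclophilin 40, a cochaperone needed for microRNA activity. SQN gave 1148 and 821 in Col-0 at 0 h, 1036 and 1187 at 2 h, 1273 and 1428 at 6 h, and 765 and 902 after mock. For SQN, slr-1 gave 904 and 72 at 0 h, 913 and 834 at 2 h, and 1039.5 and 1481 at 6 h. Only the second slr-1 0 h array was low, and the other 13 lay between 765 and 1481. AT2G27900 gave 564 and 573 in Col-0 at 0 h, 529 and 436 at 2 h, 413 and 564 at 6 h, and 467 and 397 after mock. For AT2G27900, slr-1 gave 509.6 and 21.7 at 0 h, 531 and 441 at 2 h, and 483 and 574 at 6 h. Again 13 arrays lay together, from 397 to 574, and 1 was far below. AT1G32810 gave 496 and 466 in Col-0 at 0 h, 264 and 322 at 2 h, 522 and 403 at 6 h, and 319 and 441 after mock. For AT1G32810, slr-1 gave 479.9 and 11.5 at 0 h, 431 and 355 at 2 h, and 380.5 and 370.4 at 6 h. The same array was the low one. The plastid genes psbD, psbB, psaA and psaC, which encode core proteins of photosystems II and I, belonged here as well. On the slr-1 0 h arrays psbD read 947 and 123, psbB 1289 and 193, psaA 4994.5 and 272, and psaC 390 and 29.4. Across the 65 plastid probe sets past the floor with 1 gene, 35 were lowest of the 14 arrays on that second array, against 10.4% of all probe sets past the floor and 71 of the members. The first slr-1 0 h array was lowest in 36 members (5.58% of all).

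Among members of this pattern, the named nuclear ones came from longer genes. The 4 plastid genes of the pattern were 246 to 2253 bases long, and 12 of its members had no gene. The 11 nuclear named ones had a median length of 5864 bases in the RefSeq table, and 10 of them were longer than the median of 2363 bases over the 7995 named nuclear probe sets past the floor. The 50 named nuclear members with both arrays low had a median of 2127 bases, and 18 were longer than 2363. Among all named nuclear probe sets past the floor, the median log2 difference of replicate 2 minus replicate 1 in slr-1 at 0 h was -0.05 in the longest 20.0% of genes and 0.02 in the shortest. The corresponding values for Col-0 at 0 h were 0.03 and -0.04. The part of RNA quality in these members was not tested. Without the second slr-1 0 h array none of the 27 met the conditions (0 of 27), whereas 79 of the 100 with both arrays low did. Without the first, all 27 met them and 78 of the 100.

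**Figure D4:**
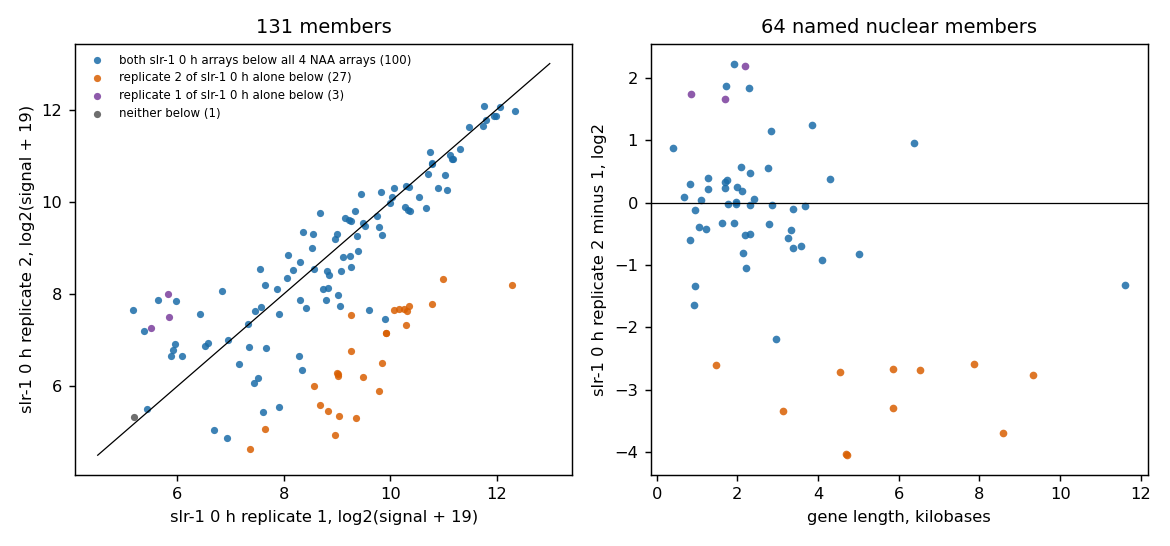
Left, log2(signal + 19) of the 131 members on slr-1 0 h replicate 1 (horizontal) and replicate 2 (vertical), with the line of equality. Right, gene length of the 64 named nuclear members in kilobases against the log2 difference of replicate 2 minus replicate 1; colours mark the pattern on the slr-1 0 h arrays as in the left panel. Members low on replicate 2 alone lie far below the line, and 10 of the 11 on the right are longer than 2363 bases.

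A split by replicate shows how far the choice carries over between arrays. The conditions applied to the replicate 1 arrays alone chose 153 probe sets, and on the replicate 2 arrays 31 of these (20.3%) had both slr-1 differences of at least 1, against 3.9% of all probe sets past the floor. Applied to the replicate 2 arrays alone they chose 262, of which 53 (20.2%) had both differences on the replicate 1 arrays, against 3.48%. Those that met the whole set of conditions in both replicates form 1 overlap, of 22, so the 2 directions are not separate checks of it. It was 14.4% of the 153 (1.58% of all probe sets past the floor) and 8.4% of the 262 (0.83%). Of the 131, 58 met the conditions without either slr-1 0 h array in turn, and 26 without any 1 of the 14 arrays in turn. The 26 had a median difference of -1.69 at 0 h and 0.80 at 6 h, slr-1 minus Col-0. Of them 13 have a name: AT1G24600, AT5G13900, AT3G17110, AT4G17280, AT1G78070, SAG29, CCR2, AT3G22620, AT5G19875, AT1G72640, AT5G47530, AT2G44300 and AT1G61890.

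The limits of the choice cut through a continuum. The members nearest to the limit were GPDHC1 (glycerol-3-phosphate dehydrogenase) at a smaller slr-1 difference of 1.0007, 264795_at at 1.0016, AT3G07320 at 1.0024, AT4G17480 at 1.0038 and AT2G48060, the PIEZO-type channel gene, at 1.0043. Just outside lay AT5G50330 at 0.9958, OCT1, an organic cation transporter gene, at 0.992, 254069_at at 0.9879, 258723_at at 0.9859 and 266086_at at 0.9849. In all 81 probe sets that met every other condition had a value from 0.8 to below 1, and 50 members had one below 1.2. At 1.5 or more there were 29 members, and at 2 or more 3.

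In the members the wild type tended to lie lower after 6 h of mock treatment than at 0 h, as far as the conditions let it. The median Col-0 difference from 0 h was 0.08 at 2 h, -0.29 at 6 h of NAA and -0.47 after mock, against -0.05, -0.11 and -0.00 over all probe sets past the floor. The 2 mock arrays differed across the members, with median signals of 687.0 on replicate 1 and 891.9 on replicate 2. Over all probe sets past the floor these medians were 859.7 and 852.4. On the Col-0 0 h arrays the members' medians were 1047.2 and 1019.4. After mock, both arrays were below both Col-0 0 h arrays in 70 members (24.7% of all probe sets), and 21 were lower by more than 1 (1.96%). At 2 h none was (0 of 131, against 3.21%). After 6 h of NAA the arrays did not overlap in the same direction in 62 (47.3%, against 42.7% of all probe sets). In 22 the level was lower by more than 1 (16.8% against 12.8%), so both shares were near those of all probe sets. Of the 83 that met the conditions without the second slr-1 0 h array, 46 lay lower without overlap after mock and 43 after NAA. Since a Col-0 difference of 0.5 or more was barred, these counts rest in part on the choice. Of the 27 members at least 1 higher in slr-1 than in Col-0 at 6 h, 20 had a Col-0 level more than 0.5 below its own 0 h level. All 4 slr-1 NAA arrays were above all 8 Col-0 arrays in 10 members, against 2.56% of all probe sets, and in 9 of the 83 that met the conditions without the second slr-1 0 h array. These were SAG29, AT4G28160, AT5G19875, AT2G44300, AT5G08250, AT4G09500 and the unnamed 250467_at, 245612_at, 245629_at and 257140_at. The 4 slr-1 NAA arrays lay within the range of the 8 Col-0 arrays in 48 members (36.6%, against 54.0% of all probe sets), and in 31 of the same 83. The largest smaller slr-1 difference of any member, 2.70, was that of 250467_at. 250467_at gave 209.5 and 200.4 in Col-0 at 0 h, 344 and 239 at 2 h, 91.3 and 103 at 6 h, and 235 and 284 after mock. For 250467_at, slr-1 gave 104 and 10.4 at 0 h, 503 and 358 at 2 h, and 398 and 347 at 6 h. Its slr-1 0 h replicates were far apart. Across the 62 members without a named gene the smaller difference ran from 1.00 to 2.70, and 9 of them were at least 1 above Col-0 at 6 h.

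Whether the mutant level still moved between 2 h and 6 h was tested in limma over all 14883 probe sets, with Benjamini-Hochberg adjustment and a threshold of 0.05. The choice set no limit on this difference itself but did on the level at each of its times, so the members' count is not read against that of all probe sets. None of the 131 members passed (0 called), whereas 69 of all probe sets (0.464%) were higher at 6 h and 112 (0.753%) lower, 181 in all (1.22%). An unadjusted p below 0.05 was found in 18 of the 131 members and in 2287 of the 14883 probe sets. The members' differences of 6 h minus 2 h had a median of -0.01, with 62 higher and 69 lower at 6 h, and ran from -1.96 to 1.39. With only the 2 groups in the fit 3 members passed, AT3G17110 (-1.07), 266462_at (-1.19) and 258287_at (-0.97). With the floor at the 60th percentile or with arrays centred on their medians AT2G44300 passed (-0.66 and -0.73, adjusted p = 0.0489 and 0.0334). With 1 array left out, passes were made by AT2G44300 and AT2G21100 (without either mock array), AT3G17110 (without either slr-1 0 h array) and AT1G61890 (without slr-1 2 h NAA replicate 2). AT5G20860, at 562 and 769 in slr-1 at 6 h against 307 and 184 at 2 h, and AT4G28160 had the differences of 1.39 and 1.17, neither past the threshold.

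Whether NAA changed the members in the wild type beyond the transfer was tested as Col-0 6 h NAA against Col-0 6 h mock. In limma 18 members were higher (20.6% of all probe sets were) and 14 lower (24.8%), so that 32 of 131 changed, 24.4% where all probe sets had 45.4%. Both groups of this comparison had a ceiling in the choice, which removed probe sets that NAA or the transfer raised, so nothing is read from the lower share. The spread in the fit came from all 14 arrays, those of slr-1 at 0 h included. With only the groups compared in the fit, 31 members passed, 25 of them among the 32, and 6511 probe sets in all. SQN, for example, had an adjusted p of 0.432 in the main limma fit and 0.0128 in that one. The members' median difference was 0.16, against -0.09 over all probe sets. AT3G50400, the GDSL-type gene, was higher with NAA by 1.48 (SE 0.31, adjusted p = 0.00142), at 2925 and 2449 with NAA against 632 and 1409.8 after mock. The RING-type ubiquitin ligase gene AT5G17600 was higher by 1.27 (SE 0.22, adjusted p = 2.99e-04). In both genes the 2 groups did not overlap. AT5G17600 gave 860.2 and 638 in Col-0 at 0 h, 710.5 and 815 at 2 h, 737 and 888 at 6 h, and 324 and 326 after mock. For AT5G17600, slr-1 gave 215 and 258 at 0 h, 636 and 521 at 2 h, and 454 and 576 at 6 h. Here the slr-1 0 h arrays were the lowest of the 14. AT2G35430, a CCCH zinc finger gene, was higher by 1.92 (SE 0.55, adjusted p = 0.0108), and AT5G20860 by 1.27 (SE 0.37, adjusted p = 0.012), at 238 and 264 with NAA against 82.6 and 104 after mock. AT2G35430 gave 214 and 199 in Col-0 at 0 h, 218 and 162 at 2 h, 170.5 and 396 at 6 h, and 33.7 and 84.8 after mock. For AT2G35430, slr-1 gave 38.3 and 162 at 0 h, 158 and 246 at 2 h, and 294 and 232 at 6 h. Its replicates were far apart in Col-0 with NAA, after mock and in slr-1 at 0 h. Both calls ended without 1 array: AT2G35430 reached an adjusted p of 0.122 when the second NAA array was left out and 0.0926 when the first mock array was, and AT5G20860 without the same arrays (0.0618 and 0.0648). The unnamed 254020_at was higher by 1.38 (adjusted p = 5.74e-04), and 266462_at by 1.21 (adjusted p = 0.0142). 254020_at gave 2257 and 3246 in Col-0 at 0 h, 2414 and 2759.8 at 2 h, 3729 and 3878 at 6 h, and 1219 and 1734 after mock. For 254020_at, slr-1 gave 703 and 723 at 0 h, 2887 and 1987 at 2 h, and 1466 and 2464 at 6 h. In Col-0 the 6 h NAA arrays were the highest, and in slr-1 the 0 h arrays were the lowest of the 14. 266462_at gave 2384 and 1520.2 in Col-0 at 0 h, 3298 and 1803 at 2 h, 996 and 1616 at 6 h, and 422 and 687 after mock. For 266462_at, slr-1 gave 408 and 256 at 0 h, 3469 and 2094 at 2 h, and 1053 and 1306 at 6 h. Its slr-1 0 h arrays were the lowest of the 14 as well. The call of 266462_at ended without NAA replicate 2 (0.136) or mock replicate 1 (0.125).

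Among the 14 lower members, AT2G44300, the lipid-transfer-type gene, fell by 1.83 relative to mock (SE 0.16, adjusted p = 6.99e-07), at 470.3 and 410.4 with NAA against 1404 and 1849 after mock. The pseudogene AT3G17110 fell by 2.18 (SE 0.39, adjusted p = 4.15e-04), at 113 and 66.1 with NAA against 442 and 481 after mock. Both kept their calls under every alternative that was run, and in both the groups were far apart. GSTU28 fell by 1.84 (SE 0.64, adjusted p = 0.0304), at 22 and 127 with NAA against 240.3 and 276 after mock. The LEA-type gene AT3G02480 fell by 1.62 (SE 0.50, adjusted p = 0.0158), at 390.5 and 261 with NAA against 738 and 1418 after mock. The call of GSTU28 ended without NAA replicate 1 (0.312), mock replicate 1 (0.0768) or mock replicate 2 (0.114), and that of AT3G02480 without NAA replicate 2 (0.105) or mock replicate 2 (0.144). The unnamed 266175_at fell by 2.03 (adjusted p = 0.00176) relative to mock. 266175_at gave 417 and 331 in Col-0 at 0 h, 237 and 164 at 2 h, 112 and 57.9 at 6 h, and 319.7 and 474 after mock. For 266175_at, slr-1 gave 155 and 48.1 at 0 h, 229 and 252 at 2 h, and 294 and 404 at 6 h. Both NAA arrays of Col-0 at 6 h lay below its other Col-0 arrays. 250474_at gave 2286 and 2705 in Col-0 at 0 h, 3211 and 2032 at 2 h, 785 and 720.3 at 6 h, and 1431 and 2834 after mock. For 250474_at, slr-1 gave 443 and 323 at 0 h, 1583 and 551 at 2 h, and 834 and 825 at 6 h. In 250474_at, too, the Col-0 6 h NAA arrays were the lowest of the genotype. It fell by 1.40 relative to mock (adjusted p = 0.0107), and the call ended without NAA replicate 2 (0.0541) or mock replicate 2 (0.131). Among the cell wall and cuticle genes AT5G13900 (0.90), AT3G22620 (0.78) and the peroxidase gene AT1G68850 (0.83) were also higher with NAA and CCR2 lower (-0.59). Each of these 4 calls ended without some array of the comparison, AT5G13900 for example at an adjusted p of 0.38 without mock replicate 1, AT3G22620 at 0.446 and AT1G68850 at 0.327 without the same array, and CCR2 at 0.261 without NAA replicate 1. Leaving out 1 array moved the 32 calls to between 18, without NAA replicate 2, and 41, without either slr-1 0 h array.

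Whether the step from 2 h to 6 h differed between the genotypes was tested as the change in slr-1 minus that in Col-0. In limma 6 members passed, all with a positive difference (5.25% of all probe sets were positive and 4.59% negative, 9.84% in all). An unadjusted p below 0.05 was found in 21 of the 131 members and in 3751 of the 14883 probe sets. All 4 groups of the comparison had a limit in the choice, so neither the shared sign nor the share of members called, 4.58%, is read as a result about the set. AT2G44300 had a difference of 1.56 (SE 0.22, adjusted p = 0.00128), with Col-0 going from 2116 and 2107 to 470.3 and 410.4 and slr-1 from 4549 and 4176 to 2584 and 2943. CCR2 had a difference of 1.07 (SE 0.31, adjusted p = 0.043), with Col-0 going from 1183 and 1451 to 477 and 628, and slr-1 from 1567 and 1258 to 1145 and 1366. In both genes Col-0 was lower at 6 h than at 2 h by more than slr-1 was, and the groups of Col-0 did not overlap. 247780_at gave 961 and 863 in Col-0 at 0 h, 1225 and 1197 at 2 h, 405 and 393 at 6 h, and 769 and 1004 after mock. For 247780_at, slr-1 gave 253 and 439.6 at 0 h, 1185 and 728 at 2 h, and 1044 and 1059 at 6 h. 263606_at gave 1703 and 1629 in Col-0 at 0 h, 2528 and 1966 at 2 h, 1139 and 1175 at 6 h, and 829 and 1037 after mock. For 263606_at, slr-1 gave 625 and 869 at 0 h, 1699 and 1446 at 2 h, and 1905 and 2340.5 at 6 h. In these too the Col-0 6 h NAA arrays lay below the Col-0 2 h arrays. In slr-1 both 6 h arrays of 263606_at lay above its 2 h arrays, and those of 247780_at lay between its 2 h arrays. Their differences were 1.73 (SE 0.36, adjusted p = 0.0112) for 247780_at and 1.36 (SE 0.27, adjusted p = 0.00864) for 263606_at. 250541_at gave 6795 and 7280.1 in Col-0 at 0 h, 9228 and 6732 at 2 h, 4068 and 3266 at 6 h, and 2297 and 5500.0 after mock. For 250541_at, slr-1 gave 1754 and 1822 at 0 h, 7726 and 3950.4 at 2 h, and 9324 and 7068 at 6 h. 253195_at gave 1271 and 1789 in Col-0 at 0 h, 2038 and 1698 at 2 h, 997 and 1051 at 6 h, and 529 and 1304 after mock. For 253195_at, slr-1 gave 496 and 616 at 0 h, 1550.0 and 916 at 2 h, and 2308 and 2089 at 6 h. In both the Col-0 6 h NAA arrays again lay below the Col-0 2 h arrays. In slr-1 both 6 h arrays of 253195_at lay above its 2 h arrays, and those of 250541_at overlapped them. The differences were 1.66 (SE 0.49, adjusted p = 0.0494) for 250541_at and 1.72 (SE 0.47, adjusted p = 0.0359) for 253195_at. The calls of AT2G44300, 247780_at and 263606_at held under every alternative run, whereas the other 3 calls ended in some settings. With Col-0 6 h NAA replicate 1 left out, CCR2 had an adjusted p of 0.171. With slr-1 2 h NAA replicate 2 left out, 250541_at had one of 0.191 and 253195_at of 0.141. With only the 4 groups of the comparison in the fit 12 members passed, and without either slr-1 0 h array, which are in none of these groups but in the estimate of the spread, 9 did.

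The 10 pathway lists (auxin, cytokinin, ethylene, jasmonate, salicylic acid and abscisic acid response, detoxification, heat shock, and starvation for sugar or for phosphate and iron) hold 183 genes, of which 27 had a probe set named for them alone, 21 of these past the floor. None was a member (0 of 27, where 0.88% of all probe sets past the floor were). With so few genes nothing is read from that. The 9 auxin response genes were higher in slr-1 by a median of 2.12 at 2 h and 2.45 at 6 h, and in Col-0 by 3.78 and 4.27, and each was more than 0.5 higher in Col-0 at 2 h, which the conditions barred. GH3.5, which encodes an enzyme that conjugates auxin to amino acids, was 3.73 higher in slr-1 at 2 h. GH3.1, of the same family, lay below the offset on both slr-1 0 h arrays and read 448 and 735 at 2 h in slr-1, so the size of its difference depends on the offset. Against mock, all 9 were higher in Col-0 at 6 h (median 5.14), and 5 of 9 had a lower step from 2 h to 6 h in slr-1 than in Col-0, for example PUCHI at -3.30 (SE 0.41, adjusted p = 4.82e-04 in limma). Of 3 dehydration genes the LEA gene LEA4-5 was 4.46 and 1.23 higher in slr-1 and 1.62 higher in Col-0 at 2 h. In slr-1 it fell by 3.23 between 2 h and 6 h (SE 0.46, adjusted p = 0.00542 in limma), and the dehydrin gene COR47 by 1.29 (adjusted p = 0.0226). COR47 read 28693 and 19597 in slr-1 at 6 h, the second on the array with the lowest maximum signal. The third, XERO2, was 1.52 and 0.73 higher in slr-1. GSTU25, the only detoxification gene past the floor, was 2.66 and 2.96 higher in slr-1 and 2.44 and 1.06 in Col-0. The heat shock list, with HSP22.0 and HSP15.7 past the floor, had a median of 0.02 at 2 h and 0.94 at 6 h in slr-1. HSP22.0 rose by 1.69 between 2 h and 6 h in slr-1 (adjusted p = 0.0473 in limma), and this step exceeded that of Col-0 by 1.92 (adjusted p = 0.0379). The other lists with a gene past the floor had medians from -1.07 to -0.21 at 2 h and from -1.24 to -0.04 at 6 h in slr-1. At 2 h the defence gene SAG101 differed by -0.53, the ethylene genes EIN3 and RTE1 by -0.05 and -0.37, and the sugar starvation genes PPDK and MCCA by -0.98 and -1.07.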

How the data were processed

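Root segments of Arabidopsis were measured on 14 Affymetrix ATH1 arrays, in 7 groups of 2. The deposited values are unlogged signal intensities, 1 per probe set and array, made by the authors with MAS5 per the submitters' processing notes; its settings and target, and the annotation build, are not given in the sources used here. No normalization was added. The 64 control probe sets were left out. The offset of 19 and the floor of 218 are the rounded pooled 10th and 40th percentiles of the signals; the offset compresses differences of dim probe sets. Gene names came from GEO's platform annotation, updated through RefSeq (TAIR10.1), and a probe set with several genes or none was left unnamed.

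Using limma 3.58.1 in R 4.3.3, group means were fitted over all arrays (trended moderated variance, 7 residual and 6.57 prior degrees of freedom), with Benjamini-Hochberg adjustment over the 14883 probe sets past the floor. It was tested on simulated data. Python 3.11.15 was used for the rest. The number of arrays, 2 per group, limits the precision; the p-values measure the spread between these samples, and exact permutation of 2 against 2 arrays cannot reach 0.05.

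Members, functional groups and gene lists were chosen with earlier results of these data known. Named with all array values are the 14 named members with the largest smaller slr-1 difference and members past the threshold in a test, the 6 largest per test and direction. Also named are the 5 probe sets nearest to the limit on each side, up to 2 genes per pathway list, and LBD16 and LBD29; further members of functional groups were named after their values were seen. Alternatives changed the offset, floor, limits, normalization, variance model, groups fitted, replicate block and arrays. Sequences were not used here.

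Whether replicate numbers pair the samples was checked by correlating deviations from group means across probe sets; the correlations between groups ran from -0.16 to 0.13, all 9 within a genotype being above 0 but not every one above 0.1, so the numbers were not taken to pair the samples.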

Additional observations from a re-analysis of the deposited data

Results flagged for a closer look

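Between 2 h and 6 h of NAA, 6 members moved differently in slr-1 and in Col-0 by the test of that difference in limma, slr-1 minus Col-0 on the log2 scale. That is 4.58% of the members, where 9.84% of all probe sets passed, and all 4 groups had a limit in the choice. The lipid-transfer-type gene AT2G44300 had a value of 1.56 and the cinnamoyl-CoA reductase gene CCR2 of 1.07. The unnamed 247780_at had 1.73, 263606_at 1.36, 250541_at 1.66 and 253195_at 1.72. Col-0 was lower at 6 h than at 2 h in each of them. The calls of CCR2, 250541_at and 253195_at were lost in some of the other settings, as when slr-1 2 h NAA replicate 2 was left out (adjusted p = 0.153, 0.191 and 0.141).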

How the results depend on the processing

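The number of members, 131, was 75 with an offset of 100, 208 with no floor, 29 with a smallest slr-1 difference of 1.5, 38 with a largest Col-0 difference of 0, and 262 on the replicate 2 arrays alone. It ran from 104 to 265 with 1 array left out, the highest without slr-1 0 h replicate 1 (106 shared). Members called between 2 h and 6 h in slr-1, 0 in limma, were 1 with the floor at the 60th percentile or with arrays centred on their medians, and 3 with only the groups compared; with 1 array left out they ran from 0 to 2. All probe sets called there, 181, were 75 without a variance trend and 31 to 234 with 1 array left out. For NAA against mock in Col-0, the 32 members called ran from 18 to 41 and the 6761 probe sets from 5024 to 7080. For the difference of steps, 6 members were 3 with no filter, 3 without a trend, 12 with only the groups compared, and 3 to 10 with 1 array left out, and the 1465 probe sets were 510 to 1693. Of the 38 calls of single members, 10 of 32 against mock and 3 of 6 in the difference of steps held under every alternative run, and none reversed; 92 of the 130 lost calls came from leaving out 1 array. The cause was not tested. With the replicate number as a block the counts of members called were 0, 33 and 6, and of probe sets 173, 6716 and 1357; the numbers are not known to pair the samples. Signals near the offset of 19 limit the dimmest members.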
